A study of Mus musculus with 12 samples.

Results

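The 8 genes described here are Thy1, which encodes the cell surface glycoprotein Thy-1 (CD90), and 7 genes whose products are known to bind it or to act beside it in the membrane. They were taken from the count table by symbol: the integrin chains Itgav, Itgb3 and Itgb5, the heparan sulfate proteoglycan gene Sdc4, the adhesion receptor gene Adgre5 (CD97), and the raft partners Fyn and Pag1. All 8 were found among the 55453 genes of the count table, and all 8 were among the 18311 genes with enough counts to be tested. RNA-Seq was performed on bulk back skin of 12 mice on the C57BL/6 background, harvested at day 21 (the methods give female sex and 8 to 12 weeks of age for the KO mice). The groups of 3 mice were wild-type mice injected with PBS (WT PBS; mice 159, 160 and 161) or bleomycin (WT BLM; mice 145, 146 and 147), and Thy-1 KO mice injected with PBS (KO PBS; mice 136, 137 and 139) or bleomycin (KO BLM; mice 141, 143 and 144). Bleomycin, a drug that provokes fibrosis where it is injected, was given s.c. each day into the back at 10 mg/kg; the methods state up to 14 days of injections and the labels 21 days of treatment. The labels restrict the deletion to no cell type, control mice were littermates per the methods, and no group shares another deletion or treatment.

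Thy-1 is a small protein held in the outer membrane leaflet by a glycosylphosphatidylinositol anchor, abundant on fibroblasts, mouse T cells and neurons. On the outside of the cell it binds integrins that contain the αv chain (encoded by Itgav) paired with β3 (Itgb3) or β5 (Itgb5), with syndecan-4 (Sdc4) acting as a partner of the integrin in the adhering cell, and it also binds CD97, a receptor carried by leukocytes. On the inside it has no tail of its own and signals through lipid rafts, where the Src family kinase Fyn is found and where the adaptor encoded by Pag1 recruits Csk, the kinase that holds Src family kinases in check.

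Thy1 lies on chr9:44043384-44048579 of GRCm38 (plus strand, 4 exons in the longest coding transcript). The stretch below is read from exon 3, at chr9:44046655-44046711, and encodes residues 27 to 45 of the 162-residue precursor. It is shown because the integrin contact lies in it: the capitals mark the codons for arginine, leucine and aspartate at residues 35 to 37, the RLD motif through which Thy-1 is known to bind αv integrins, which occurs 1 time in the coding sequence.
Thy1 exon 3: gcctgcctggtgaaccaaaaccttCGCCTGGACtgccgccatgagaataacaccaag

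Between 26473700 and 38890450 reads were counted on genes per mouse. Expression is given as CPM, a gene's counts relative to its library total after edgeR's TMM scaling, and a gene was called changed at a Benjamini-Hochberg adjusted p under 0.05 in edgeR's quasi-likelihood test over the 18311 genes. With 3 mice a group the smallest two-sided p of an exact permutation test is 0.1, and no gene was tested that way. Markers of skin were present in every mouse: the 4 basal keratinocyte markers summed to 5332 to 16465 CPM and the 7 fibroblast markers to 4028 to 21915 CPM. The mice also differed in hair growth. The mean of 11 genes of the growing hair follicle (12 were listed and 11 found) ran from 10.5 to 10.9 log2 CPM over the WT PBS group and was 10.9 in KO PBS mouse 136 and 10.1 in KO BLM mouse 141, while the other 7 mice had -0.13 to 7.46. Every WT BLM mouse (0.52 to 4.73) was below every KO BLM mouse (6.51 to 10.1) in this mean. Hair growth and genotype therefore cannot be told apart after bleomycin, for any gene. KO PBS mouse 136 was the lowest or highest of its group for 7 of the 8 genes, where this held for 90% of all genes tested, and KO BLM mouse 141 for 6 of 8 (81.8% of all genes). Where leaving out these mice changed a call or a direction, or moved a value by much, the value without them is given.

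**Figure D1:**
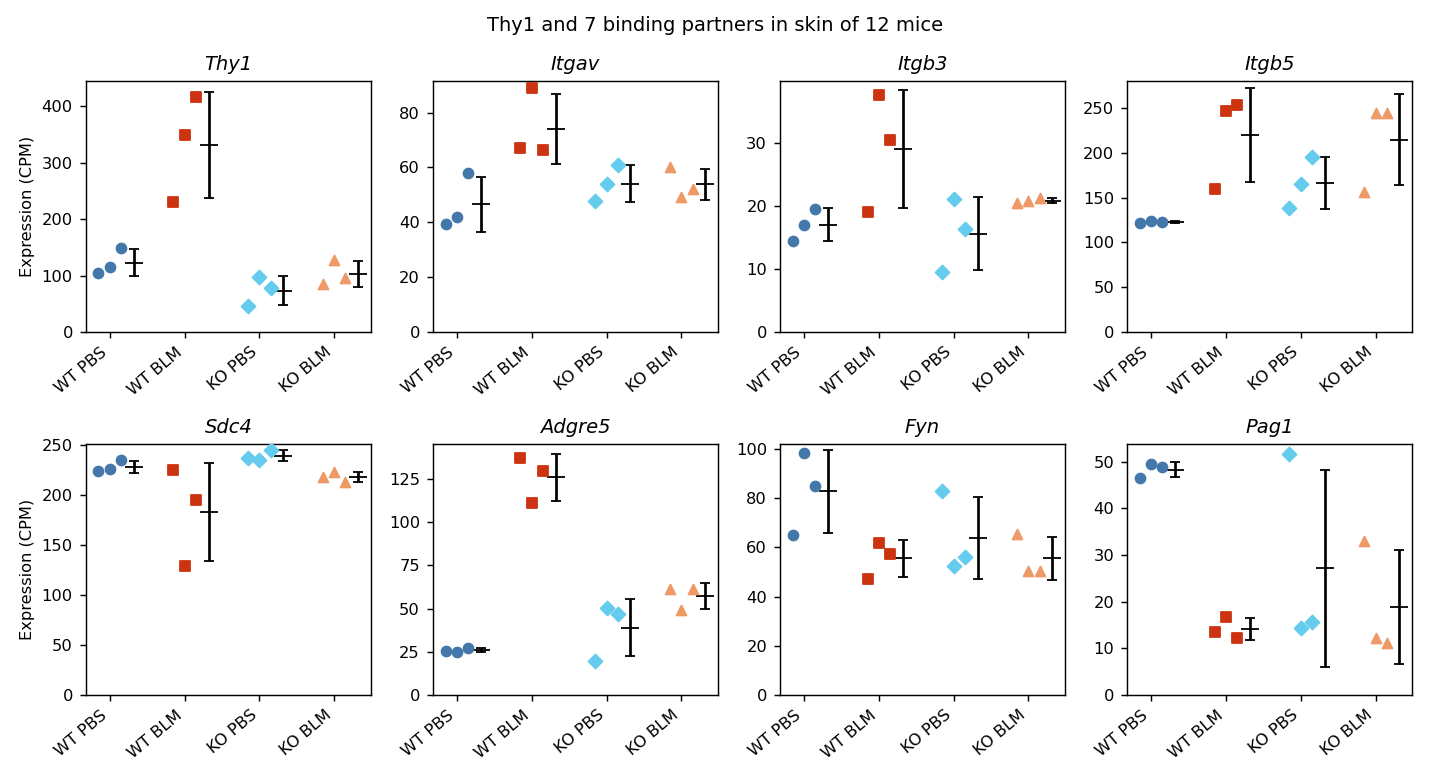
Expression (CPM, linear axis from 0) of Thy1 and its 7 partners in each of 12 mice, by group; bars give the mean and SD of 3 mice. Thy1 and Adgre5 were highest in the 3 WT BLM mice, Itgb5 was 121 to 124 CPM in all WT PBS mice, and Pag1 was split within both KO groups.

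Thy1, the targeted gene, was counted in every mouse, including all 6 KO mice, in which 1373 to 4129 reads fell on it. WT PBS mice had 104, 115 and 150 CPM and WT BLM mice 231, 349 and 416 CPM. KO PBS mice had 45.6 (mouse 136), 96.9 and 77.4 CPM, and KO BLM mice 84.7 (mouse 141), 128 and 96.4 CPM. Each WT BLM mouse was above every other mouse, each KO PBS mouse was below every WT PBS mouse, and the KO BLM mice overlapped with both PBS groups.

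The mean Thy1 level in KO mice was 59.6% of that in WT mice after PBS (73.3 ± 25.9 against 123 ± 23.7 CPM, SD, n = 3) and 31.0% after bleomycin (103 ± 22.4 against 332 ± 93.8 CPM, SD, n = 3). The genotype difference had a log2 fold change of -0.75 (SE 0.300; adjusted p = 0.224) after PBS and of -1.69 (SE 0.306; adjusted p = 0.112) after bleomycin, and neither passed edgeR's threshold. Without mouse 136 the difference after PBS was -0.50 (adjusted p = 0.172). After bleomycin Thy1 ranked 35 of 18311 by p. Without KO PBS mouse 136 the difference after bleomycin was -1.69 with an adjusted p of 0.0154 in edgeR, and in DESeq2 with all mice it was -1.69 with an adjusted p of 9.26e-05. Mouse 136 is in neither group of this comparison and enters only through the shared fit. The difference was not called in 17 of 20 alternatives, among them a fit of only the 2 groups compared. Hair genes also separated these groups, so hair growth and genotype cannot be told apart in this comparison. The table gives 1 count per gene, so which exons the reads of the KO mice came from was not tested, and the genotypes are used as labelled.

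In WT mice Thy1 rose 2.70-fold with bleomycin (log2 fold change 1.43, SE 0.304; edgeR adjusted p = 0.00971). The call held with each of the 12 mice left out in turn (log2 fold change 1.24 to 1.64, adjusted p 0.00142 to 0.0468). In KO mice the same comparison gave a log2 fold change of 0.49 (SE 0.299; adjusted p = 0.369) with overlapping groups, which was 0.24 (adjusted p = 0.555) without mouse 136 and 0.36 (adjusted p = 0.369) without mice 136 and 141. The difference between the responses was -0.94 (SE 0.422; adjusted p = 0.159) and passed only without mouse 136 (-1.19, adjusted p = 0.0249) or without mice 136 and 141 (-1.06, adjusted p = 0.0474). Because the skin was taken in bulk, fewer Thy1-bearing cells and less Thy1 RNA per cell cannot be told apart, here or for any gene that follows.

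Some markers of T cells and fibroblasts, which carry Thy1 in mice, also rose in WT BLM skin. The 7 T cell markers summed to 17.4 to 19.2 CPM in WT PBS and 57.7 to 82.2 CPM in WT BLM mice, and 7 of 7 rose, led by the receptor constant gene Trac (log2 fold change 2.32, adjusted p = 0.00478) and the coreceptor gene Cd4 (2.88, adjusted p = 0.00561). In the KO mice the T cell sum was 16.6 to 51.5 CPM after PBS and 54.1 to 102 CPM after bleomycin. Of the 7 fibroblast markers 3 rose in WT mice, among them the type I collagen genes Col1a1 (log2 fold change 2.08, adjusted p = 0.0213) and Col1a2 (1.72, adjusted p = 0.0376). The other fibroblast markers included Pdgfra at 0.056 (adjusted p = 0.936), Dcn at -0.21 (adjusted p = 0.789) and Fap at -0.43 (adjusted p = 0.396), so the list did not move as one. Its sum, most of it from the collagen genes, was 4256 to 5534 CPM in WT PBS and 7546 to 21915 CPM in WT BLM mice. Neither list had a defining marker at 0 in any mouse, and their part in the Thy1 result was not tested.

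Of the integrin chains, the αv and β5 genes rose in WT skin. Itgav (chr2:83724397-83806916, plus strand, 30 exons), the α chain shared by both Thy-1 receptors, was 39.4, 42.0 and 58.1 CPM in WT PBS and 67.2, 88.9 and 66.3 CPM in WT BLM mice. In the KO mice it was 47.6, 53.9 and 60.8 CPM after PBS and 60.2, 49.3 and 52.2 CPM after bleomycin. The WT groups did not overlap, and the KO groups lay between and across them.

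Itgav rose 1.59-fold in WT mice (log2 fold change 0.67, SE 0.179; edgeR adjusted p = 0.0204). The KO response had a log2 fold change of -0.0055 (SE 0.179; adjusted p = 0.989), with means of 54.1 ± 6.62 and 53.9 ± 5.67 CPM (SD, n = 3). The response differed between the genotypes by -0.68 (SE 0.253; adjusted p = 0.114), a difference that passed without mouse 136 (-0.76, adjusted p = 0.0392). Each KO BLM mouse was below each WT BLM mouse (log2 fold change -0.46, adjusted p = 0.273), groups that the hair genes separated as well. The WT call was lost without WT PBS mouse 159 or 160 or WT BLM mouse 146 (adjusted p 0.0671 to 0.100).

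Itgb5 (chr16:33829665-33949338, plus strand, 15 exons), one β chain that pairs with αv, had the tightest WT PBS group of the 8 genes, at 121, 124 and 123 CPM. It was 160, 247 and 254 CPM in WT BLM mice, 138, 165 and 195 CPM in KO PBS mice and 156, 244 and 244 CPM in KO BLM mice. All 9 mice of the other groups were above the WT PBS mice, and the KO BLM mice overlapped with the WT BLM mice.

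The rise of Itgb5 in WT mice was 1.79-fold (log2 fold change 0.84, SE 0.223; edgeR adjusted p = 0.0199). Neither the KO response (log2 fold change 0.37, SE 0.222; adjusted p = 0.362) nor the difference after PBS (0.44, SE 0.222; adjusted p = 0.278) passed the test, and after bleomycin the genotypes differed by -0.036 (SE 0.221; adjusted p = 0.944). The difference after PBS passed without mice 136 and 141 (0.55, adjusted p = 0.0402). The WT call was lost without any 1 WT PBS mouse, and without WT BLM mouse 146 or 147 (adjusted p 0.0590 to 0.0733).

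The stretches below are the 250 bases before the RefSeq start of transcription (GRCm38.p6, plus strand) of the integrin genes that rose, at chr2:83724147-83724396 and chr16:33829415-33829664, shown because these chains of one receptor differ in them. Capitals mark the GC box, GGGCGG on either strand, the core that Sp1 family factors bind.
Itgav promoter: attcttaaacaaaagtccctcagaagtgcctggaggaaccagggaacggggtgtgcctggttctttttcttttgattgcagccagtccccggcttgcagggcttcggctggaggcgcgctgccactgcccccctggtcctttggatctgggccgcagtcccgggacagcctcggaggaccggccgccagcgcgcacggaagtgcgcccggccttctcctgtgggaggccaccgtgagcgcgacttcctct
Itgb5 promoter: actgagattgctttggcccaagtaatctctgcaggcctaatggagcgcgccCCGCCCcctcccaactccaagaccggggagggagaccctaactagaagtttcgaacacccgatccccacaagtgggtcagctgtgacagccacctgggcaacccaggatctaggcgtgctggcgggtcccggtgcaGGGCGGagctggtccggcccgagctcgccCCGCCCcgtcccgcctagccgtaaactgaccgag

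The Itgb5 window held 3 GC boxes and the Itgav window 0, where 32.7% of 32851 RefSeq promoter windows of the same length held at least 1. RefSeq promoters were matched for 4 of the 8 genes. Of the other pair, the Sdc4 window held 4 GC boxes and the Fyn window 1, and Fyn also held a CCAAT box (CCAAT on either strand, in 33.8% of windows). None of the 4 windows held TATAAA (12.4% of windows) or the AP-1 letters TGANTCA (6.75%).

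Itgb3 (chr11:104608000-104670476, plus strand, 15 exons) encodes the β3 chain, the other partner of αv and also the β chain of the platelet fibrinogen receptor. It was 14.4, 17.0 and 19.6 CPM in WT PBS and 19.1, 37.6 and 30.5 CPM in WT BLM mice. In the KO mice it was 9.54 (mouse 136), 21.0 and 16.3 CPM after PBS and 20.5, 20.8 and 21.3 CPM after bleomycin. The WT groups overlapped through WT BLM mouse 145, and the KO BLM mice differed from each other by less than 1 CPM.

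The Itgb3 difference in WT mice had a log2 fold change of 0.77 (SE 0.293; edgeR adjusted p = 0.0637), close to that of Itgav in size but with a wider error. It passed without WT BLM mouse 145, KO PBS mouse 136 or KO PBS mouse 137 (adjusted p 0.0195 to 0.0479) and in a fit of the WT groups alone (0.78, adjusted p = 0.0434). No other Itgb3 comparison passed: 0.42 in KO mice (adjusted p = 0.438; 0.16 without mouse 136), -0.12 between genotypes after PBS (adjusted p = 0.810; 0.13 without mouse 136), -0.48 after bleomycin (adjusted p = 0.403) and -0.36 for the difference of responses (adjusted p = 0.560). The platelet markers summed to 19.2 to 31.3 CPM in WT PBS and 28.2 to 58.5 CPM in WT BLM mice, and 0 of 4 tested passed at an adjusted p under 0.05. They did not move as one. The mean of Pf4 went from 13.2 to 34.9 CPM, and that of Itga2b, a partner of the β3 chain, from 11.2 to 8.07 CPM. Up to 2 of the 5 listed platelet markers were at 0 in a WT PBS mouse, and their part in the Itgb3 values was not tested.

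Per length of exons, Itgb5 was the more abundant of the β genes in every mouse. The ratio of Itgb5 to Itgb3 RPKM (CPM divided by the length of the merged exons in kilobases) was 10.4 to 14.0 in WT PBS, 10.9 to 13.9 in WT BLM, 13.03 to 24.0 in KO PBS and 12.6 to 19.5 in KO BLM mice. The highest ratio belonged to KO PBS mouse 136, and all 4 groups overlapped.

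Sdc4 (chr2:164424247-164443887, minus strand, 5 exons), the proteoglycan gene, varied little outside the WT BLM group. It was 224, 225 and 235 CPM in WT PBS, 237, 235 and 245 CPM in KO PBS and 218, 223 and 212 CPM in KO BLM mice. The WT BLM mice were 225, 128 and 195 CPM, with mouse 146 the lowest of all 12. The KO BLM mice lay just below the KO PBS mice, and the KO PBS mice just above the WT PBS mice.

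No Sdc4 comparison passed edgeR's test. The log2 fold change with bleomycin was -0.32 in WT mice (SE 0.174; adjusted p = 0.171) and -0.13 in KO mice (SE 0.173; adjusted p = 0.682). Between the genotypes it was 0.069 after PBS (adjusted p = 0.820) and 0.25 after bleomycin (adjusted p = 0.455), and the responses differed by 0.18 (SE 0.245; adjusted p = 0.618). Sdc4 was the only one of the 8 genes that had an unadjusted p over 0.05 in WT mice, where 47.4% of all genes tested had one under 0.05.

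Adgre5 (chr8:83723251-83741326, minus strand, 20 exons), the CD97 receptor gene, had the largest fold change of the 8 and the smallest p. It was 25.6, 25.0 and 27.2 CPM in WT PBS and 137, 111 and 130 CPM in WT BLM mice. In the KO mice it was 19.7 (mouse 136), 50.4 and 46.8 CPM after PBS and 61.5, 48.9 and 61.6 CPM after bleomycin. The WT BLM mice stood above all other mice, the KO BLM mice lay between both WT groups, and 1 of the 3 KO PBS mice (mouse 137) reached the KO BLM range.

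In WT mice Adgre5 rose 4.86-fold (log2 fold change 2.28, SE 0.292; edgeR adjusted p = 0.00314), and 0.339% of the genes tested had a smaller p. The call held with each of the 12 mice left out (log2 fold change 2.18 to 2.37, adjusted p 4.3e-05 to 0.0264). The KO response had a log2 fold change of 0.56 (SE 0.279; adjusted p = 0.290), and of 0.24 (adjusted p = 0.233) without mouse 136. The difference of the responses was -1.72 (SE 0.397; adjusted p = 0.0702), the smallest p of the 8 genes for that question, and it passed without mouse 136 (-2.04, adjusted p = 0.000364), without mice 136 and 141 (-2.09, adjusted p = 0.000188) and in DESeq2 with all mice (-1.73, adjusted p = 0.00287).

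The genotype values of Adgre5 had opposite signs after PBS and after bleomycin, and neither passed in edgeR with all mice. After PBS the KO mean was the larger, at 38.97 ± 16.8 against 25.9 ± 1.12 CPM (SD, n = 3; log2 fold change 0.59, SE 0.280; edgeR adjusted p = 0.258), and this passed without mouse 136 (0.91, adjusted p = 0.00151). The KO PBS mice left in that fit were low in hair genes and the WT PBS mice high. With the hair mean as a covariate in the fit, the difference after PBS turned in direction. After bleomycin the KO mean was the smaller and the groups did not overlap, at 57.3 ± 7.33 against 126 ± 13.6 CPM (SD, n = 3; log2 fold change -1.14, SE 0.282; edgeR adjusted p = 0.198). That difference passed without mouse 136 (adjusted p = 0.00517) and in DESeq2 (-1.14, adjusted p = 0.0169). Mouse 136 is a KO PBS mouse, in neither bleomycin group, and enters only through the shared fit. The Adgre5 difference after bleomycin was not called in 17 of 20 alternatives, among them a fit of only the groups compared. Every WT BLM mouse was also lower in hair genes than every KO BLM mouse, so hair growth and genotype cannot be told apart there. Leukocyte markers moved with Adgre5 in WT mice. The 7 macrophage markers summed to 244 to 597 CPM in WT PBS, 1083 to 1807 CPM in WT BLM, 255 to 1274 CPM in KO PBS and 808 to 1079 CPM in KO BLM mice, and 6 of 7 rose in WT mice, with the F4/80 gene Adgre1 (log2 fold change 2.32, adjusted p = 0.00945) and the Fc receptor gene Fcgr1 (2.96, adjusted p = 0.0129) having the smallest p. The neutrophil markers summed to 9.83 to 15.03, 65.0 to 459, 9.72 to 24.4 and 19.6 to 297 CPM in the same groups. Of the 4 tested 3 rose in WT mice, with the growth factor receptor gene Csf3r (log2 fold change 2.54, adjusted p = 0.00557) and the chemokine receptor gene Cxcr2 (3.85, adjusted p = 0.0109) first. The listed marker that was not tested, Ly6g, was at 0 in every WT PBS and KO BLM mouse. It reached at most 0.065 CPM in the other groups. The part of these cells in the Adgre5 result was not tested.

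Both raft genes had lower means in WT BLM than in WT PBS skin. Fyn (chr10:39368855-39565381, plus strand, 14 exons), the Src family kinase, was 65.1, 98.5 and 85.0 CPM in WT PBS and 47.2, 62.0 and 57.5 CPM in WT BLM mice. In KO mice it was 82.9 (mouse 136), 52.5 and 56.1 CPM after PBS and 65.6 (mouse 141), 50.6 and 50.6 CPM after bleomycin. The WT groups did not overlap, and in both KO groups the mouse with high hair genes was the highest.

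The log2 fold change of Fyn in WT mice was -0.58 (SE 0.213; edgeR adjusted p = 0.0581), just short of the threshold. It passed in DESeq2 (-0.60, adjusted p = 0.0320), with RLE normalization (-0.60, adjusted p = 0.0482), and without WT PBS mouse 159, KO PBS mouse 136 or KO BLM mouse 141 (adjusted p 0.0196 to 0.0467). The other comparisons gave -0.20 in KO mice (adjusted p = 0.613; 0.033 without mouse 136), -0.38 between genotypes after PBS (adjusted p = 0.308) and -0.0003 after bleomycin (adjusted p = 0.999), and the responses differed by 0.38 (adjusted p = 0.395). The difference after PBS passed without mouse 136 (-0.61, adjusted p = 0.0334), where the KO PBS mice left were low in hair genes.

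Pag1 (chr3:9687479-9833679, minus strand, 9 exons), the raft adaptor gene, was the one of the 8 that fell. It was 46.5, 49.6 and 48.9 CPM in WT PBS and 13.5, 16.7 and 12.2 CPM in WT BLM mice. In the KO groups it was 51.6 (mouse 136), 14.3 and 15.6 CPM after PBS and 32.9 (mouse 141), 12.3 and 11.1 CPM after bleomycin. The KO mice thus fell on either side of a gap between 16.7 and 32.9 CPM, with no mouse inside it.

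In WT mice Pag1 fell 3.42-fold (log2 fold change -1.77, SE 0.529; edgeR adjusted p = 0.0298), and the call was lost without any 1 of the 6 WT mice (adjusted p 0.0607 to 0.0863). The KO response was -0.53 (SE 0.515; adjusted p = 0.578), and without mouse 136 it was 0.33, turned in direction. Between the genotypes the log2 fold change was -0.83 after PBS (adjusted p = 0.345), which passed without mouse 136 (-1.70, adjusted p = 0.0119), and 0.41 after bleomycin (adjusted p = 0.686), which was -0.27 without mice 136 and 141. The responses differed by 1.24 (SE 0.729; adjusted p = 0.256), and by 2.11 (adjusted p = 0.0124) without mouse 136 or 1.42 (adjusted p = 0.00111) without both.

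Pag1 was above the gap in the 5 mice with a hair gene mean of 10.1 or more and below it in the other 7. The hair genes themselves summed to 43445 to 59633 CPM in WT PBS and 34.9 to 773 CPM in WT BLM mice, and 4 of 11 fell in WT mice, first the follicle homeobox genes Hoxc13 (log2 fold change -4.72, adjusted p = 0.00978) and Msx2 (-5.17, adjusted p = 0.0110). Up to 1 of them was at 0 in a WT BLM mouse. With the hair mean as a covariate in the fit, the WT change of Pag1 was -0.13 (adjusted p = 0.950), that of Thy1 0.70 (adjusted p = 0.498) and that of Adgre5 1.39 (adjusted p = 0.0771), and 0 of the 8 genes and 19 of 18311 genes passed. All WT PBS mice were high and all WT BLM mice low in hair genes, so hair growth and bleomycin cannot be told apart in WT mice. Nor can hair growth and genotype be told apart after bleomycin, where the KO mice were the higher in hair genes.

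**Figure D2:**
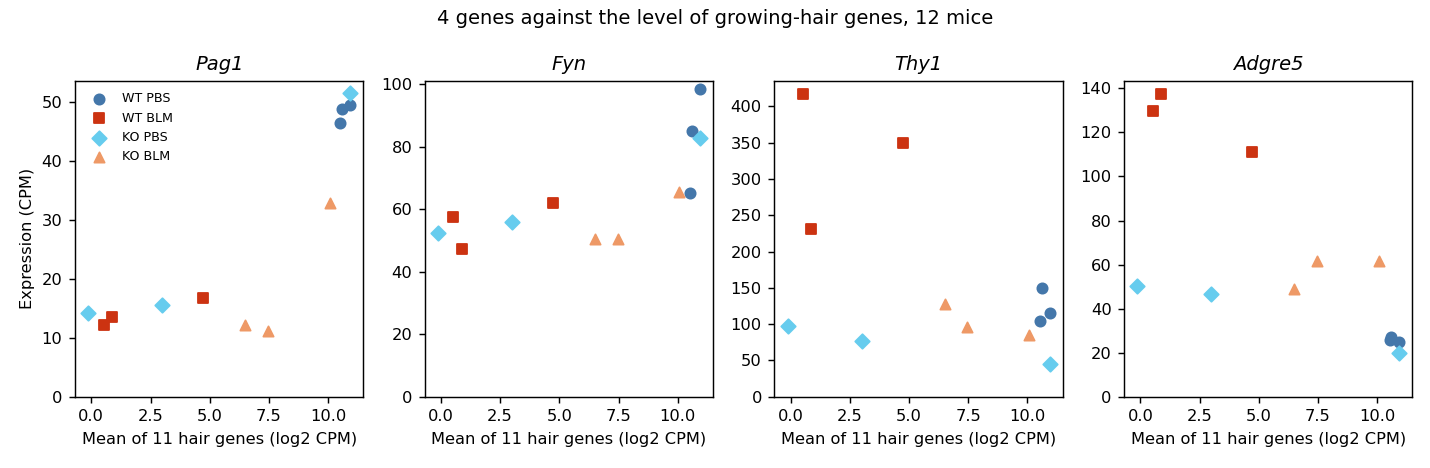
Expression (CPM) of Pag1, Fyn, Thy1 and Adgre5 against the mean log2 CPM of 11 growing hair genes, 1 point per mouse, 12 mice in 4 groups. Pag1 was 32.9 to 51.6 CPM in the 5 mice at the right and 11.1 to 16.7 CPM in the other 7. For Thy1 and Adgre5 the WT BLM mice stood above all KO mice. The only KO mice in or below the WT BLM range of hair level were PBS mice (137 and 139), and every KO BLM mouse was above that range.

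Over the whole set, 5 of the 8 genes were called in WT mice, where 34% of all genes tested were. Of these 4 were higher (Thy1, Itgav, Itgb5 and Adgre5; 19.8% of all genes were higher) and 1 lower (Pag1; 14.1% were lower). The median log2 fold change of the 8 was 0.72, against 0.018 for all genes tested, and the groups did not overlap for 6 of 8 (57% of all genes). The count of called genes was 2 without WT PBS mouse 160 or WT BLM mouse 146, leaving Thy1 and Adgre5, where 13.9% and 19.8% of all genes were then called. It was 3 without WT PBS mouse 159 or 161 or WT BLM mouse 147 (14%, 18.1% and 17.6% of all genes) and 7 without KO PBS mouse 136 (45.7%), so the count over the 8 genes moved with that over all genes.

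The other comparisons called 0 of the 8 genes in edgeR with all mice. With bleomycin in KO mice 0.306% of all genes were called; 0 of the 8 had an unadjusted p under 0.05 (20% of all genes did), DESeq2 called 0 (3.48% of all genes), and the groups did not overlap for 1 of 8 (Sdc4; 19.3% of all genes), with a median log2 fold change of 0.18. Between the genotypes after PBS 0.0655% of all genes were called; 1 of the 8 had an unadjusted p under 0.05 (Thy1; 20.4% of all genes did), DESeq2 called 0 (2.16% of all genes), and the groups did not overlap for 3 (Thy1 lower, Itgb5 and Sdc4 higher in KO; 18.9% of all genes). Without mouse 136 this comparison called 3 of the 8 (Adgre5, Fyn and Pag1), where 36.7% of all genes were then called.

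After bleomycin 0.0928% of all genes were called between the genotypes. Of the 8, 3 had an unadjusted p under 0.05 and did not overlap (Thy1, Itgav and Adgre5, all lower in KO; 16.6% of all genes had such a p and 27.5% did not overlap), and DESeq2 called 2 (Thy1 and Adgre5; 1.69% of all genes), as did edgeR without mouse 136 (6.89% of all genes). With only the groups compared in the fit, edgeR called 0 of the 8 (0.0346% of all genes). The difference of the responses called 0% of all genes, and 3 of the 8 had an unadjusted p under 0.05 (Thy1, Itgav and Adgre5; 31.1% of all genes did). DESeq2 called 1 (Adgre5; 9.42% of all genes, near the share of 1 in 8), and without mouse 136 edgeR called 4 (Thy1, Itgav, Adgre5 and Pag1), where 39.9% of all genes were then called. These comparisons share groups of mice with each other, so their values are not independent.

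**Figure D3:**
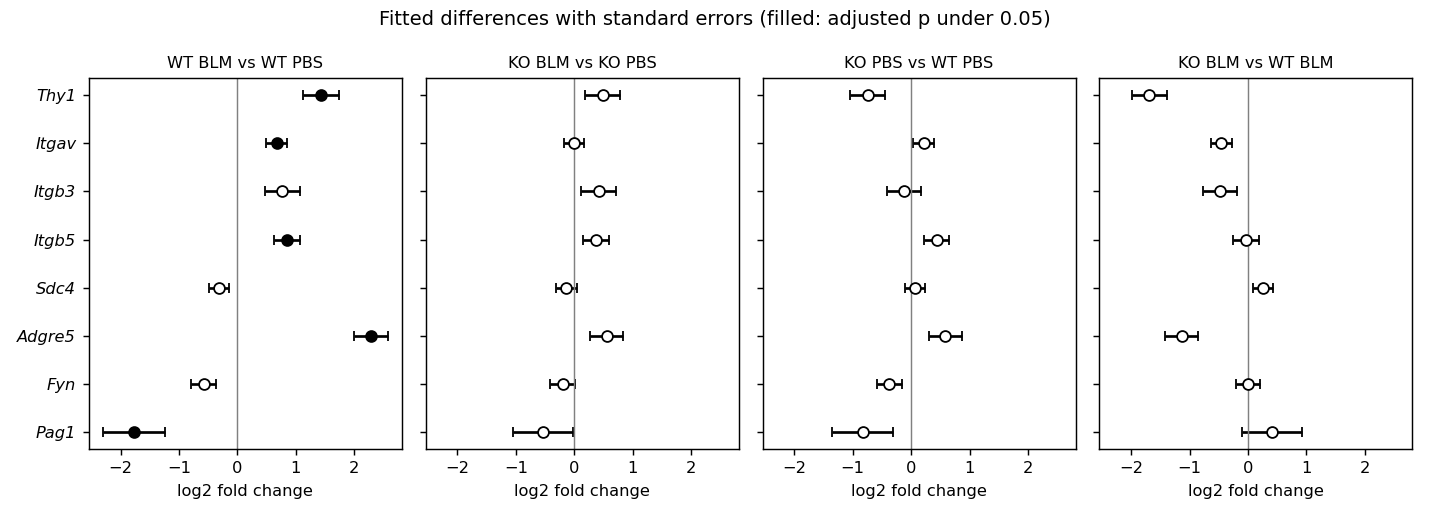
Fitted log2 fold changes with standard errors for the 8 genes in 4 comparisons, from one edgeR fit of 12 mice; filled points have an adjusted p under 0.05. The filled points are the 5 of WT BLM vs WT PBS (Thy1, Itgav, Itgb5, Adgre5 and Pag1), and the lowest point of KO BLM vs WT BLM is Thy1 at -1.69.

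**Figure D4:**
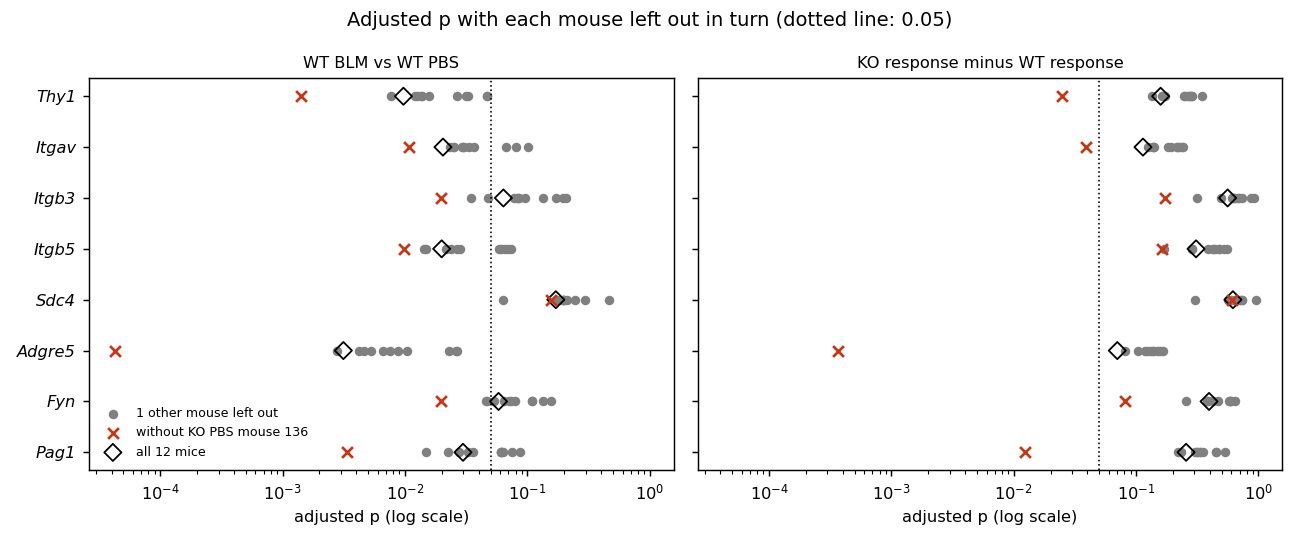
Adjusted p (log axis) of the 8 genes with each mouse left out in turn, for the WT response to bleomycin and for the difference of the responses; diamonds use all 12 mice, crosses leave out KO PBS mouse 136, and the dotted line is 0.05. Only Thy1 and Adgre5 stay left of the line in every fit of the WT response, and for the difference of the responses only crosses lie left of it.

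On the scale of RPKM over merged exons, the order of levels in WT PBS skin was Sdc4 (89.5 ± 2.29), Thy1 (41.1 ± 7.92), Itgb5 (34.6 ± 0.371), Fyn (19.0 ± 3.85), Adgre5 (6.90 ± 0.298), Pag1 (5.04 ± 0.169), Itgav (4.33 ± 0.946) and Itgb3 (2.88 ± 0.439; SD, n = 3 for each). Thy1 and Itgb5 were separated by less than the SD of Thy1, and Pag1 and Itgav by less than the SD of Itgav. In WT BLM skin Thy1 stood first at 111 ± 31.3, with Sdc4 at 71.8 ± 19.4 and Itgb5 at 62.0 ± 14.7, neighbours that overlapped, and Adgre5 at 33.6 ± 3.62 was above Fyn at 12.7 ± 1.74. In both KO groups Sdc4 was first (93.9 ± 2.18 after PBS and 85.5 ± 2.05 after bleomycin) and Thy1 came after Itgb5 (24.5 ± 8.64 against 46.7 ± 8.08, and 34.4 ± 7.49 against 60.4 ± 14.4). These levels depend on the exon length assumed: with the longest coding transcript, Thy1 in WT PBS skin was 70.9 and Itgav 6.59.

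The genes around the 8 in the same pathways were read from 8 lists with 52 genes, all of them tested. In WT mice 25 rose and 0 fell (48.1%, with a median log2 fold change of 0.77), beside the 34% of all genes called. In the other 4 comparisons 0 of the 52 were called, with medians of 0.22 in KO mice, 0.31 and -0.35 between the genotypes after PBS and bleomycin, and -0.58 for the difference of the responses.

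Among the receptors, all 5 other integrin chains that pair into Thy-1 receptors rose in WT mice, with a median log2 fold change of 2.40. Itga5, the fibronectin receptor α chain, went from 29.99 ± 1.15 to 156 ± 18.7 CPM (SD, n = 3; log2 fold change 2.38, adjusted p = 0.00215), and Itgax, the α chain of a leukocyte integrin, changed by 3.49 (adjusted p = 0.00415). Of the 4 other partners of the αv and β3 chains 1 rose, the common β1 chain gene Itgb1 (1.13, adjusted p = 0.00439). Of the 10 matrix ligands of αv integrins 6 rose, led by fibronectin, Fn1, which went from 339 ± 76.5 to 2282 ± 620 CPM (SD, n = 3; log2 fold change 2.75, adjusted p = 0.00329), and osteopontin, Spp1 (5.10, adjusted p = 0.00497). Itgb1 is a member of both integrin lists.

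Of the 6 other syndecans and Sdc4 tail partners 3 rose, among them Sdc2 (log2 fold change 1.18, adjusted p = 0.00704) and Sdc3 (1.98, adjusted p = 0.0123), where Sdc4 itself was -0.32 and not called. Of the 3 genes of the Adgre5 family and its Cd55 ligand 1 rose, Adgre1, which is also a macrophage marker. Cd55, which encodes the complement regulator bound by CD97, was at 0.34 (adjusted p = 0.497).

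On the inner side, 3 of 7 other Src family kinases rose, with Fgr (log2 fold change 3.40, adjusted p = 0.00397) and Lyn (2.22, adjusted p = 0.00607), both kinases of myeloid cells, having the smallest p. Of 9 raft adaptors and scaffolds 5 rose, with the flotillins Flot1 (1.14, adjusted p = 0.00415) and Flot2 (0.76, adjusted p = 0.00694) first, beside the fall of Pag1.

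The remaining marker lists moved as follows in WT mice. Of 6 endothelial markers 4 rose (Pecam1, log2 fold change 1.23, adjusted p = 0.0215, and Vwf, 1.21, adjusted p = 0.0216), with a sum of 156 to 172 CPM in WT PBS and 192 to 492 CPM in WT BLM mice. Of 7 skeletal muscle markers 6 rose (Mylpf 2.92, adjusted p = 0.00607, and Acta1 2.57, adjusted p = 0.00797). Of 5 pericyte and smooth muscle markers 1 rose (Des 3.01, adjusted p = 0.00568, which skeletal muscle also expresses), and 1 of 2 B cell markers tested (Cd79b 2.22, adjusted p = 0.0105). No basal keratinocyte marker (of 4) or adipocyte marker (of 6) was called. In the other 4 comparisons no marker of any list was called.

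By likeness of log2 CPM over the 12 mice, among the 13838 genes whose mean log2 CPM was 1 or more, the genes closest to Thy1 were Tlr6 (Pearson r = 0.95), Relt (0.92), Ptpre (0.91), Slc39a7 (0.89) and Aga (0.89). Of the partners Itgb3 was closest (0.83, rank 27), before Adgre5 (0.75, rank 173), Itgav (0.65), Itgb5 (0.46), Fyn (-0.26), Pag1 (-0.43) and Sdc4 (-0.66). With the 4 group means removed, the closest were Mlkl (0.98), Tmem173 (0.98), Gmfg (0.97), Ly6a (0.96) and Rap1b (0.96), and of the partners again Itgb3 (0.86, rank 374). All values of a mouse come from one library, and these correlations are descriptions with no test.

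The genes beside Thy1 on chromosome 9 were counted as well. Of the 10 nearest protein-coding genes on each side 17 of 20 were tested. In WT mice 3 were higher and 2 lower with bleomycin, where 19.8% of all genes were higher and 14.1% lower. In KO mice 1 was higher, where 0.306% of all genes were called. Between the genotypes 0 were called after PBS or after bleomycin. An unadjusted p under 0.05 was held by 2 after PBS (20.4% of all genes) and 4 after bleomycin (16.6% of all genes).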

How the data were processed

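Stranded mRNA libraries of whole back skin were sequenced as read pairs, and the authors deposited whole-number read counts per gene symbol without normalization. The submitters' processing notes name the build GRCm38.p6 and MultiQC 1.7; the aligner, counting tool, annotation and use of strand are not given in the sources used here, so reads of overlapping or antisense genes cannot be told apart. Counts were filtered with filterByExpr (minimum 10, total 15), scaled by TMM and fitted in edgeR 4.0.16 (R 4.3.3) as 4 group means, with Benjamini-Hochberg adjustment over 18311 genes and a threshold of 0.05; SE is the log2 fold change divided by the root of F. The common dispersion was 0.122 (coefficient of variation 34.9%). log2 CPM used a prior count of 2. Within groups, no 2 libraries agreed within sampling noise (chi-square per degree of freedom at least 33.1). The labels name no batch, litter or cage, and p-values measure the spread between these mice.

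Gene positions and lengths came from GENCODE M21 (GRCm38), in which 98.1% of symbols matched once, and promoters from RefSeq. The members and lists were chosen with earlier results of these data known. All 8 genes were named in every comparison; of a list, at most the 2 genes with the smallest p in each direction in WT mice; of the genes most like Thy1, the first 5; neighbours by count; Cd55, Pdgfra, Dcn, Fap, Ly6g, Pf4 and Itga2b were named after their values were seen. The edgeR fit of the WT and KO responses was tested on simulated counts with changes in WT BLM mice only. Those counts held no hair differences, and the other comparisons and alternatives were not tested in this way. Alternatives were DESeq2 1.42.0, RLE and upper-quartile scaling, no filter, a mean of at least 1 CPM, only the groups compared, the hair mean as a covariate, leaving out mice 136 and 141 together, and leaving out each mouse. The results of 1 pathway list and 1 marker list are not reported here. The other experiments of the study were not analysed here.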

Additional observations from a re-analysis of the deposited data

How the results depend on the processing

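Over all alternatives, 698 recomputed values kept their direction and their side of the threshold, 19 were no longer called, 36 were newly called and 39 turned in direction. No paired analysis was possible because each mouse has its own number and no number is shared between groups. Leaving out each mouse in turn gave 2 to 7 of the 8 genes called in WT mice (13.9% to 45.7% of all genes), 0 to 3 between the genotypes after PBS (0.032% to 36.7%), 0 to 2 after bleomycin (0.0267% to 6.89%; Thy1 -1.89 to -1.49) and 0 to 4 for the difference of the responses (0% to 39.9%; Thy1 -1.19 to -0.69). In the same fits the log2 fold change in KO mice crossed 0 for Fyn (-0.33 to 0.033), Pag1 (-1.20 to 0.33) and Itgav (-0.098 to 0.087), between the genotypes for Itgb3 after PBS (-0.39 to 0.13) and for Fyn (-0.10 to 0.085), Itgb5 (-0.22 to 0.18) and Pag1 (-0.24 to 0.68) after bleomycin, and for Sdc4 in the difference (-0.018 to 0.36). In the comparisons that involve KO mice, mouse 136 was the only single mouse whose removal changed a call.

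With the hair mean as a covariate, 0 of the 8 genes were called in WT mice (0.104% of all genes; Thy1 0.70) and 2 in KO mice (Adgre5 and Pag1; 8.54%). Between the genotypes after PBS it turned Sdc4 (-0.056), Adgre5 (-0.14), Fyn (0.0004) and Pag1 (0.068), after bleomycin Itgb5 (0.14) and Pag1 (-0.83), and in the difference Thy1 (0.14), Itgb3 (0.38), Fyn (-0.40) and Pag1 (-0.90). Without mice 136 and 141, 4 genes were called between the genotypes after PBS (40.9% of all genes; Itgb3 turned to 0.13), 2 after bleomycin (4.36%; Thy1 -1.56; Itgb5 turned to 0.15 and Pag1 to -0.27) and 4 in the difference (38.6%; Thy1 -1.06). DESeq2 called 2 genes after bleomycin (1.69%; Thy1 -1.69) and 1 in the difference (9.42%). Fyn after bleomycin, at -0.0003, turned to 0.0008 in DESeq2, 0.0106 with upper-quartile scaling, 0.0282 with no filter and 0.0127 with only both groups fitted. The cause of these changes was not tested. Each of the 8 genes had at least 287 counts in every mouse. The coefficient of variation from the common dispersion over all genes tested was 34.9%. Within groups, that of the CPM of the 8 genes ran from 1.07% (Itgb5, WT PBS) to 78.0% (Pag1, KO PBS).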
